A study of Mus musculus with 8 samples.

Results

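Regulators that sit above mTOR complex 1, together with Deptor, which binds mTOR, were followed in intestinal epithelial cells. The cells came from mice with a floxed Rictor gene and from controls. The 10 genes are Tsc1, Tsc2, Rheb, Rraga, Rragc, Flcn, Depdc5, Nprl2, Nprl3 and Deptor. They were chosen by name for their place in the pathway, with earlier results of these data known. Each matched 1 of the 54139 genes in the deposited tables. RNA sequencing gave 4 libraries labelled WT, with the genotype Villin-Cre, and 4 labelled cKO, with the genotype Rictor Flox; Villin-Cre. Both groups carry the Cre recombinase, whose Villin promoter is active in the intestinal epithelium, and only cKO carries the floxed Rictor allele. The sources used here do not give the age or sex of the mice, the segment of intestine or the exons between the loxP sites. Nor do they say that each library came from its own mouse. Each p-value therefore sets the group difference only against variation between libraries, which may be technical.

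The kinase mTOR works in a pair of complexes, of which complex 1 drives growth and is switched on at the lysosome, and complex 2 is defined by Rictor. Growth factor signals reach complex 1 through the TSC complex, which keeps the small GTPase Rheb inactive. Amino acid signals reach it through the Rag GTPases, which bring it to the lysosome, and which GATOR1 and folliculin control. Deptor binds mTOR and restrains its activity.

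Library totals ran from 15110451 to 18708335 counts, and 14701 genes passed the filter on low counts, all 10 members among them. The epithelial gene Vil1 was at 1397 CPM (counts scaled to the total of each library) in WT and 1504 CPM in cKO on average, while 8 stromal markers summed to between 0.371 and 2.13 CPM per library. Rictor itself was the gene to check, and its level was 68.1% of WT in cKO, with a 95% interval of 50.1 to 92.6 (edgeR adjusted p = 0.921). In order of library number, Rictor stood at 41.7, 42.4, 57.3 and 51.4 CPM in WT; the values for cKO were 30.4, 39.6, 20.8 and 40.6 CPM. The groups did not overlap, but the nearest libraries lay within counting error of each other (ratio 0.972, 95% interval 0.874 to 1.08). The log2 fold change of Rictor was -0.55 ± 0.20, and -0.29 ± 0.14 without library 3 of either group. Reads from exons outside the deleted part are included, so this value does not measure intact Rictor transcript. Library 3 of cKO stood apart. Genes with AT-rich transcripts were low in it and genes with GC-rich transcripts were high.

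Across the members the differences between genotypes were small. None of the 10 passed an adjusted p of 0.05 in the quasi-likelihood test of edgeR, against 0.0136% of all genes tested. At an unadjusted edgeR p under 0.05 the count was 1 of 10, Deptor, against 3.90% of all genes. The groups of 4 did not overlap for 1 of 10, Tsc2, against 3.21%. In a list of 10 a single gene is the smallest count above 0, so neither share can be read as apart from its background. Point estimates were higher in cKO for 6 members and lower for 4, with a median log2 fold change of 0.0156 beside 0.00215 over all genes tested.

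Transcript abundance differed far more between the members than between genotypes. The order was taken from FPKM, in which fragments are scaled by transcript length and library size. In WT, Rraga stood highest at 27.5 ± 1.12 FPKM (SD, n = 4), followed by Deptor at 17.5 ± 2.21 and Rragc at 16.2 ± 0.746. Deptor and Rragc overlapped and were not separable. Below a gap came Tsc2 at 6.94 ± 0.242, Nprl2 at 6.90 ± 0.910, Flcn at 6.87 ± 0.755 and Rheb at 6.37 ± 0.290 FPKM, and each overlapped the next in this order. Tsc1 at 4.31 ± 0.0990, Depdc5 at 2.56 ± 0.427 and Nprl3 at 1.58 ± 0.171 FPKM closed the list, each apart from its neighbours over the 4 libraries. In cKO, Rragc stood above Deptor, at 15.7 ± 1.03 and 12.3 ± 3.53 FPKM, with overlapping libraries, and Flcn above Nprl2, also overlapping. The other 6 ranks were the same.

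**Figure D1:**
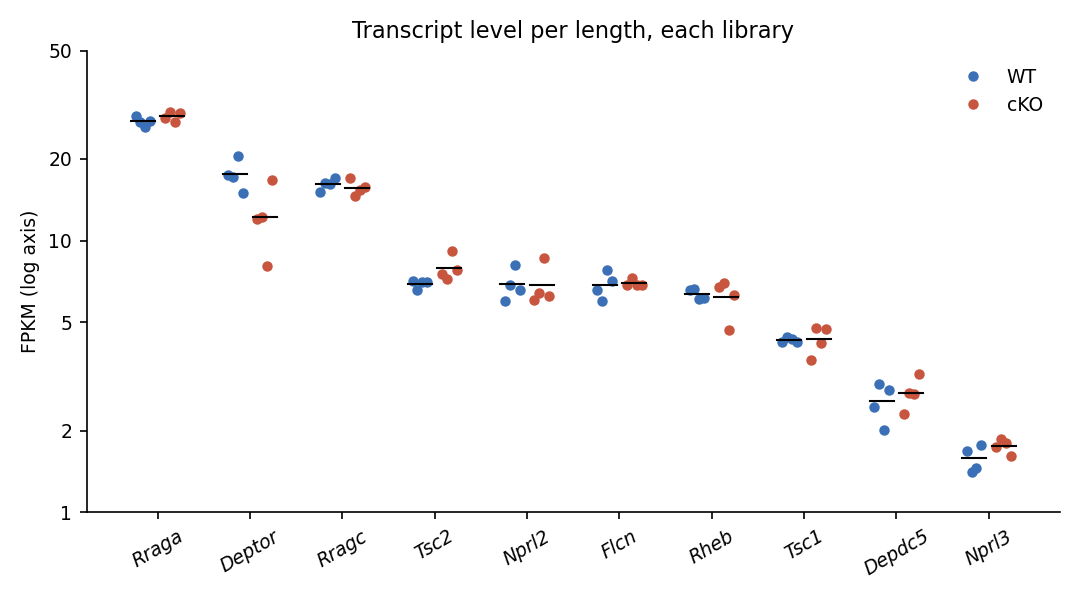
FPKM on a log axis for each of the 10 genes in the 4 WT (blue) and 4 cKO (red) libraries, ordered by the WT mean, with a line at each group mean. Rraga lies at 26.1 to 29.8 FPKM in all libraries and Nprl3 at 1.41 to 1.86, and Deptor shows the widest spread in cKO, from 8.08 to 16.7.

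The TSC complex was nearly level for 1 subunit and slightly higher for the other. Tsc1 (hamartin, ENSMUSG00000026812, chromosome 2, 28641228 to 28691167, plus strand) holds the complex together. Its WT values, by library number, were 50.5, 52.9, 52.0 and 50.6 CPM, with a coefficient of variation of 2.22%. Its cKO values were 43.8, 57.3, 50.1 and 56.2 CPM, with a coefficient of 12.1%. The cKO range encloses the WT range, and the log2 fold change was 0.0093 ± 0.11 (SE), with a 95% interval of -0.23 to 0.25.

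Tsc2 (tuberin, ENSMUSG00000002496, chromosome 17, 24595816 to 24632630, minus strand) carries the activity that inactivates Rheb. It was at 68.8, 63.9, 68.6 and 68.8 CPM in WT and 73.5, 70.8, 88.9 and 75.4 CPM in cKO. Every cKO library lay above every WT library, most of all cKO library 3. The level in cKO was 114% of WT, with a 95% interval of 98.0 to 133, which is 0.19 ± 0.10 on the log2 scale (edgeR adjusted p = 0.921). By an exact two-sided permutation test of log2 CPM the p was 0.0286, the smallest value that 4 against 4 can give. Groups without overlap always give this value, so it adds nothing to the lack of overlap. The closest pair, cKO library 2 and WT library 1, differed 1.03-fold, within counting error (95% interval 0.951 to 1.11). Without cKO library 3 the log2 fold change was 0.12. Tsc2 overlaps Pkd1 on the opposite strand at its end, and how the counting handled strand is not stated; Pkd1 was at 36.4 ± 2.30 CPM in WT and 37.8 ± 5.18 in cKO. The ratio of Tsc2 to Tsc1 in FPKM was 1.61 ± 0.0886 in WT and 1.85 ± 0.319 in cKO (SD, n = 4 each), and the groups overlapped. Tbc1d7, a further small subunit of the complex, was low, at 4.40 ± 0.426 CPM in WT and 5.13 ± 0.798 in cKO.

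Rheb (ENSMUSG00000028945, chromosome 5, 24802823 to 24842624, minus strand) is the GTPase that activates mTOR directly when loaded with GTP. It was at 51.6, 51.6, 47.5 and 48.0 CPM in WT and 52.7, 54.7, 36.6 and 49.2 CPM in cKO. Only cKO library 3 lay below the WT range. The log2 fold change of -0.042 ± 0.13 (95% interval -0.33 to 0.24) turned to 0.071 ± 0.080 without that library. Its relative Rhebl1 was at 5.98 ± 2.79 and 5.56 ± 1.51 CPM.

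The promoter windows of Rheb and Rragc held the letters CACGTG, the core of the CLEAR element that the lysosomal transcription factors TFEB and TFE3 bind. Windows of 250 bases before to 50 after the start were taken from RefSeq on build GRCm38.p6 for Tsc1, Tsc2, Rheb, Rraga, Rragc, Flcn, Depdc5, Nprl2 and Nprl3, and searched on both strands. The match stands for letters alone, and 7.15% of all 32851 windows hold it. The stretches are shown with the motif in capitals, 5′ to 3′ on the strand of the gene, because these 2 of the 9 members searched held it. The windows of Rragd and Rictor were also searched and did not hold it. Deptor had no window to search. The Rheb stretch lies at chr5:24842422-24842487 (minus strand) and its match begins at position -96 relative to the RefSeq start. The span of Rheb given above reaches 24842624, so by those coordinates the stretch lies within the gene. The Rragc stretch lies at chr4:123917291-123917356 (plus strand) and its match begins at position -112.
Rheb: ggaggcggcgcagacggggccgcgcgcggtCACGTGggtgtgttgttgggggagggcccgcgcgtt
Rragc: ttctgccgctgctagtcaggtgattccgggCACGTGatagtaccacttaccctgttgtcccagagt
The longer form TCACGTGA, which contains the core and is in 0.974% of windows, matched in 0 of these 9 windows, as did the forkhead letters TGTTTAC, which overlap neither and are in 3.65%.

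The Rag GTPases act as a pair of unlike partners, RagA or RagB with RagC or RagD. Rraga (ENSMUSG00000070934, chromosome 4, 86575668 to 86577285, plus strand), a gene whose span equals its transcript length of 1618 bases, varied little in either group. It was at 47.2, 44.8, 42.8 and 45.0 CPM in WT and 46.4, 49.1, 44.7 and 48.0 CPM in cKO, with a coefficient of variation of 4.08% and 4.12%. The groups overlapped and the log2 fold change was 0.065 ± 0.093, with a 95% interval of -0.14 to 0.27. Without WT library 3 it was 0.042. Rragb, the alternative partner, had 1 to 5 counts per WT library and 7 to 15 per cKO library. It did not pass the filter and was not tested.

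Rragc (ENSMUSG00000028646, chromosome 4, 123917446 to 123936997, plus strand) was at 51.2, 55.2, 54.7 and 57.3 CPM in WT and 57.8, 49.6, 51.7 and 53.0 CPM in cKO. Its libraries overlapped throughout, and the log2 fold change was -0.042 ± 0.095 (95% interval -0.25 to 0.17). It was -0.086 without cKO library 1, -0.0030 without cKO library 2, -0.065 without WT library 1 and -0.018 without WT library 4.

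Rragd, which can take the place of Rragc, had a smaller p than any of the 10 genes. It belonged to the list of further Rag GTPases. Rragd (ENSMUSG00000028278, chromosome 4, 32983037 to 33022180, plus strand) was at 162, 169, 188 and 172 CPM in WT and 129, 124, 93.5 and 134 CPM in cKO. No cKO library reached the WT range. The nearest pair, cKO library 4 and WT library 1, had a ratio of 0.828 (95% interval 0.783 to 0.876), beyond counting error. The cKO level was 69.6% of WT, with a 95% interval of 57.5 to 84.3, a log2 fold change of -0.52 ± 0.13. The edgeR adjusted p was 0.630 (0.00154 before adjustment), so Rragd did not pass, and the exact two-sided permutation p was 0.0286. The DESeq2 Wald test gave an adjusted p of 0.0499, just under the threshold, and over all 20 alternatives, all run on this gene after its values were seen, the adjusted p ran from 0.0499 to 0.992. The log2 fold change was -0.42 ± 0.081 without cKO library 3 and -0.38 ± 0.071 without both libraries 3. The ratio of Rragd to Rragc in FPKM was 2.04, 1.98, 2.22 and 1.94 in WT and 1.45, 1.62, 1.17 and 1.63 in cKO. The ratio was lower in each cKO library than in any WT library. Rragd was the more abundant of the pair per length in all 8 libraries.

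Flcn (folliculin, ENSMUSG00000032633, chromosome 11, 59791408 to 59810016, minus strand) acts on RagC and RagD and is needed for them to hold TFEB and TFE3 in the cytoplasm. It was at 28.7, 26.3, 34.0 and 31.1 CPM in WT and 30.1, 31.9, 30.1 and 29.8 CPM in cKO. The cKO libraries lay within the WT range, and the log2 fold change was 0.022 ± 0.11 (95% interval -0.22 to 0.27). The sign depended on the fit, with -0.070 under offsets that remove trends with transcript length and GC content and 0.094 without both libraries 3. Its partners Fnip1 and Fnip2 were at -0.16 ± 0.22 and -0.16 ± 0.13 on the log2 scale, neither past the threshold.

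GATOR1, the complex of Depdc5, Nprl2 and Nprl3 that inactivates RagA and RagB when amino acids are scarce, showed uneven transcript levels among its subunits. Nprl2 had 2.79 ± 0.847 times the FPKM of Depdc5 in WT and 2.52 ± 0.508 times in cKO, and Depdc5 had 1.63 ± 0.327 and 1.58 ± 0.298 times that of Nprl3 (SD, n = 4 each). Both ratios overlapped between groups.

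Depdc5 (ENSMUSG00000037426, chromosome 5, 32863701 to 32994236, plus strand) was at 29.1, 35.3, 24.0 and 33.6 CPM in WT and 27.4, 33.0, 32.5 and 38.3 CPM in cKO. WT library 3 was lowest, and without it the log2 fold change went from 0.10 ± 0.15 to 0.0042. Without cKO library 4, which was highest, it was 0.026, and without WT library 2 or cKO library 1 it was 0.18. Nprl2 (ENSMUSG00000010057, chromosome 9, 107542226 to 107545706, plus strand) had 219 to 269 counts per WT library. It was at 12.2, 13.9, 16.6 and 13.4 CPM in WT and 12.4, 13.2, 17.5 and 12.7 CPM in cKO. Library 3 was the highest of each group, and the log2 fold change was -0.0105 ± 0.16 (95% interval -0.36 to 0.34).

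Nprl3 (ENSMUSG00000020289, chromosome 11, 32225628 to 32267707, minus strand) was at 12.9, 10.8, 11.2 and 13.5 CPM in WT and 13.4, 14.3, 13.8 and 12.3 CPM in cKO. The groups overlapped, and the log2 fold change was 0.15 ± 0.14 (95% interval -0.15 to 0.45), or 0.10 without WT library 2. Mpg lies within Nprl3 on the opposite strand and was at 6.16 ± 1.04 CPM in WT and 6.09 ± 0.663 in cKO.

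Deptor (ENSMUSG00000022419, chromosome 15, 55112317 to 55259271, plus strand, a transcript length of 8874 bases) had the widest difference of the 10. It was at 157, 154, 183 and 135 CPM in WT and 108, 110, 72.4 and 149 CPM in cKO, from 1288 to 2966 counts per library. In cKO, 3 libraries lay below all of WT, but cKO library 4 lay above WT library 4, by a ratio of 1.11 that exceeds counting error (95% interval 1.04 to 1.17). The mean level in cKO was 69.9% of WT, with a 95% interval of 52.3 to 93.5. On the log2 scale this was -0.52 ± 0.19 (edgeR adjusted p = 0.921, or 0.0203 before adjustment), and the exact two-sided permutation p was 0.0571. The coefficient of variation was 12.6% in WT and 28.6% in cKO.

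Libraries 3 of both groups carried part of that difference. WT library 3 held the highest Deptor of the series and cKO library 3 the lowest. The log2 fold change was -0.36 ± 0.14 without cKO library 3, -0.44 ± 0.20 without WT library 3 and -0.28 ± 0.13 without both (edgeR adjusted p = 0.998). With sample quality weights in limma it was -0.30 ± 0.13. Without cKO library 4, the one that overlapped WT, it was -0.70 ± 0.17 (edgeR adjusted p = 0.579). The sign was negative in all 20 alternatives.

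**Figure D2:**
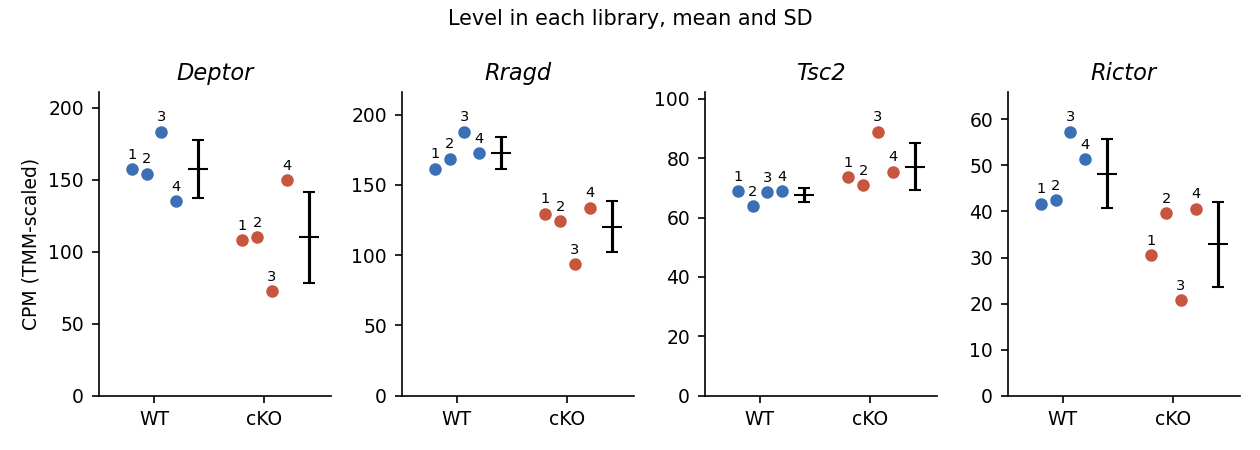
CPM of Deptor, Rragd, Tsc2 and Rictor in each WT (blue) and cKO (red) library, numbered by replicate, with mean and SD (n = 4) in black; axes start at 0. Rragd, Tsc2 and Rictor do not overlap between groups, and Deptor overlaps through cKO library 4 at 149 CPM.

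Per length, Deptor was more abundant than Mtor in every library. The FPKM ratio of Deptor to Mtor was 2.70, 2.68, 3.04 and 2.26 in WT and 2.02, 1.92, 1.08 and 2.56 in cKO, again with overlap through cKO library 4. The mean level of Mtor was 67.1 ± 1.47 CPM for WT and 67.4 ± 6.65 CPM for cKO.

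Deptor and Rictor share chromosome 15 but lie far apart on it. Of the 31 genes in the table that start within 1000 kb of Deptor, 8 were tested, of which 5 had lower and 3 higher point estimates in cKO. The median log2 fold change of the 8 was -0.0923, none had an edgeR p under 0.05 before adjustment, and the groups overlapped for each. The largest of the 8 was that of Mal2, at -541 kb from the start of Deptor, with -0.44 ± 0.20; it was picked out after its values were seen. Gm9920, which overlaps the start of Deptor on the opposite strand, was at 1.64 ± 0.258 CPM in WT and 1.48 ± 0.514 in cKO.

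The genes whose profile over the 8 libraries was closest to that of Deptor were ranked by the root mean square difference of centred log2 CPM, whose median over all genes was 0.472. The 5 closest were 5033425B01Rik, at 0.0875, the zinc finger genes Zfp975 and Zfp943, at 0.123 and 0.126, Uprt, at 0.124, and Hook1, at 0.136. Hook1, which encodes a microtubule-linked adaptor, was at 408 ± 28.7 CPM in WT and 298 ± 79.2 in cKO. The transcripts of these 5 genes had a GC content from 37.1% (Zfp943) to 44.1% (5033425B01Rik), all below the median of 49.5% over tested genes, and that of Deptor was 44.3%.

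In cKO library 3 the level of tested genes moved with the GC content of their transcript, and only part of the members followed. Tested genes were divided by GC into 5 equal bins. In the bin of lowest GC the median log2 difference of that library from the other 3 cKO libraries was -0.556, and it was -0.196, 0.043, 0.212 and 0.299 in the bins above. In the same library Deptor (44.3% GC) was at -0.74 and Rheb (44.7%) at -0.51, while Nprl2 (53.3%) was at 0.45 and Tsc2 (54.7%) at 0.28. Rragd (46.5%) was at -0.46. Deptor, Rheb and Rragd belong to the bin from 43.8 to 47.7% GC and lay below its median of -0.196. Nprl2 and Tsc2 belong to the bin from 51.3 to 55.2% and lay above its median of 0.212. Flcn (54.9%) did not follow, at -0.026, nor did Rragc (47.0%), at -0.045. Tsc1, Rraga, Depdc5 and Nprl3 lay between -0.098 and 0.050. WT library 3 had no such trend, with medians from -0.029 to 0.033 over the 5 bins, yet Deptor was at 0.31 there against the other 3 WT libraries, Nprl2 at 0.33, Flcn at 0.25 and Depdc5 at -0.44. With the trends on length and GC removed from each library, Deptor was at -0.43 ± 0.14 (edgeR adjusted p = 1), Rragd at -0.47 ± 0.093 and Tsc2 at 0.12.

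**Figure D3:**
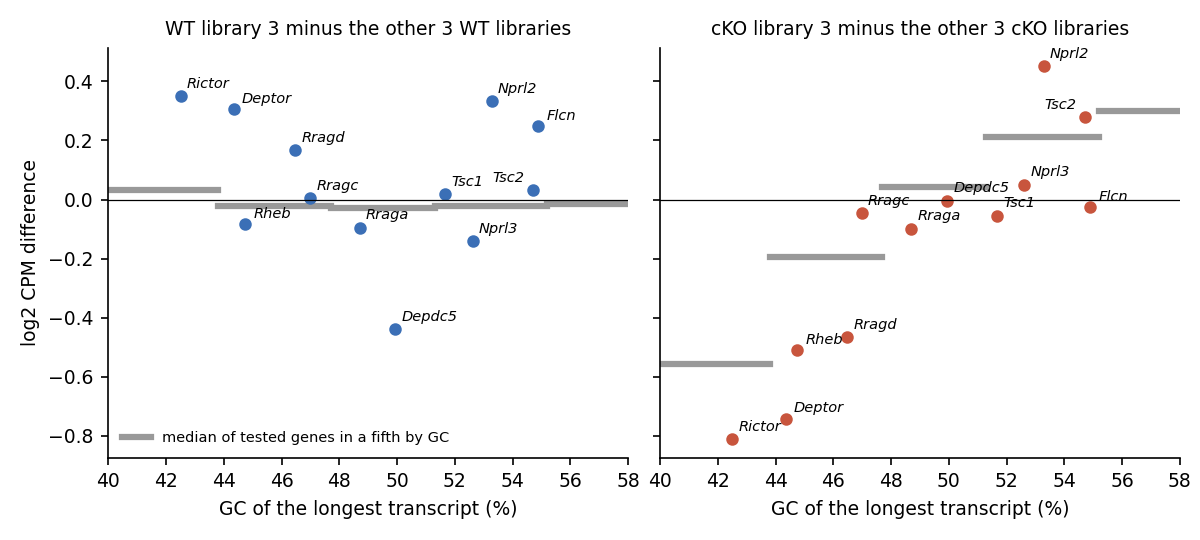
Difference in log2 CPM between library 3 and the other 3 libraries of its group, against GC content of the longest transcript (axis from 40 to 58%), in WT (left) and cKO (right), for the 10 members, Rragd and Rictor. Grey bars are medians of tested genes in 5 bins of GC. In cKO they climb from -0.556 to 0.299. Deptor is at -0.74 where the median of its bin is -0.196, and Nprl2 at 0.45 where it is 0.212.

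Summed levels of marker genes varied beside these values. All 8 enteroendocrine markers together had 444 to 598 CPM in WT and 594 to 708 CPM in cKO, with 7 of 8 higher in point estimate and none past the adjusted threshold of edgeR (5 at a p under 0.05 before adjustment, against 3.90% of all genes). The 6 Paneth cell markers had 16610 to 26380 CPM in WT and 14980 to 23760 CPM in cKO. The 8 enterocyte markers ran from 7464 to 18440 CPM in WT, highest in library 3, and from 8629 to 13330 CPM in cKO. The 8 T cell and intraepithelial lymphocyte markers had 139 to 430 and 168 to 440 CPM, highest in cKO library 3. The 8 stromal markers had 0.371 to 1.27 CPM in WT and 1.65 to 2.13 CPM in cKO, and the colon markers Car1 and Hoxb13 were at 0 counts in every library. The part of cell composition in the Deptor and Rragd values was not tested, and fewer cells of a type cannot be told apart from less RNA per cell in such bulk samples.

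Other genes of the pathway, 79 in lists drawn up by role, gave a similar picture. Of these, 75 were tested, with 45 higher and 30 lower in point estimate, a median log2 fold change of 0.0603 and none past the adjusted threshold of edgeR. Before adjustment 4 had a p under 0.05 in edgeR, which is 1 higher and 3 lower, Rictor and Rragd among the lower ones, against 3.90% of all genes. The groups did not overlap for 5 genes, 2 higher and 3 lower, against 3.21% of all genes. Both counts include Rictor, the targeted gene, and whether either differs from its background was not tested. Rragb, Mitf, Ddit4l and Castor1 (listed as Gatsl3) did not pass the filter on low counts.

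Among inputs from stress, Prkaa2, a catalytic subunit of the energy sensor AMPK that activates the TSC complex, had 51.5, 58.8, 55.9 and 50.9 CPM in WT and 48.2, 45.9, 34.7 and 45.6 CPM in cKO. Its groups did not overlap, but the nearest libraries lay within counting error (ratio 0.948, 95% interval 0.859 to 1.05). The log2 fold change was -0.32 ± 0.12, with an edgeR adjusted p of 0.921. It was -0.16 with length and GC trends removed and -0.21 without both libraries 3. The 4 tested genes of this list had 1 higher and 3 lower. Itfg2, a subunit of the KICSTOR complex that tethers GATOR1 to the lysosome, was at 15.6 ± 1.91 CPM in WT and 19.5 ± 2.39 in cKO. The difference was 0.32 ± 0.14 on the log2 scale (edgeR adjusted p = 0.921). The groups of Itfg2 overlapped, and the value was 0.17 without both libraries 3. The 4 KICSTOR subunits were all higher in point estimate, as were 4 of 5 subunits of Ragulator, the lysosomal anchor of the Rags, with the smallest p for Lamtor2 at 0.099 ± 0.11.

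GATOR2, which opposes GATOR1, had 2 subunits higher and 3 lower, with the smallest p for Wdr24 at 0.19 ± 0.12. The tested amino acid sensors, 7 of 8, had 3 higher and 4 lower, with the smallest p for Sesn3, a leucine sensor family member, at -0.22 ± 0.15. The subunits of the mTOR complexes, Rictor included, had 7 higher and 3 lower. Substrates of complex 1 had 5 higher and 3 lower, with the smallest p for Eif4ebp1 at 0.26 ± 0.16. Among TFE factors and lysosomal genes 12 were higher and 3 lower, of 15 tested, with a median of 0.0797 and none past the threshold. Tfeb was at 0.19 ± 0.13 and the autophagy gene Uvrag at 0.23 ± 0.11. The groups did not overlap for these 2 of the 15 genes, against 3.21% of all genes. For Tfeb (63.2% GC) the nearest libraries were cKO library 2 at 19.1 CPM and WT library 1 at 18.9 CPM. Its highest was cKO library 3, at 24.6 CPM. The nearest libraries of Uvrag were cKO library 2 at 21.86 CPM and WT library 1 at 21.05 CPM. Whether the nearest libraries of either gene differ beyond counting error was not tested. Uvrag had the smallest p of the list, and Tfeb was picked out after its values were seen. Genes whose transcription complex 1 is known to raise had 6 higher and 6 lower, with the smallest p for Vegfa at 0.45 ± 0.23.

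**Figure D4:**
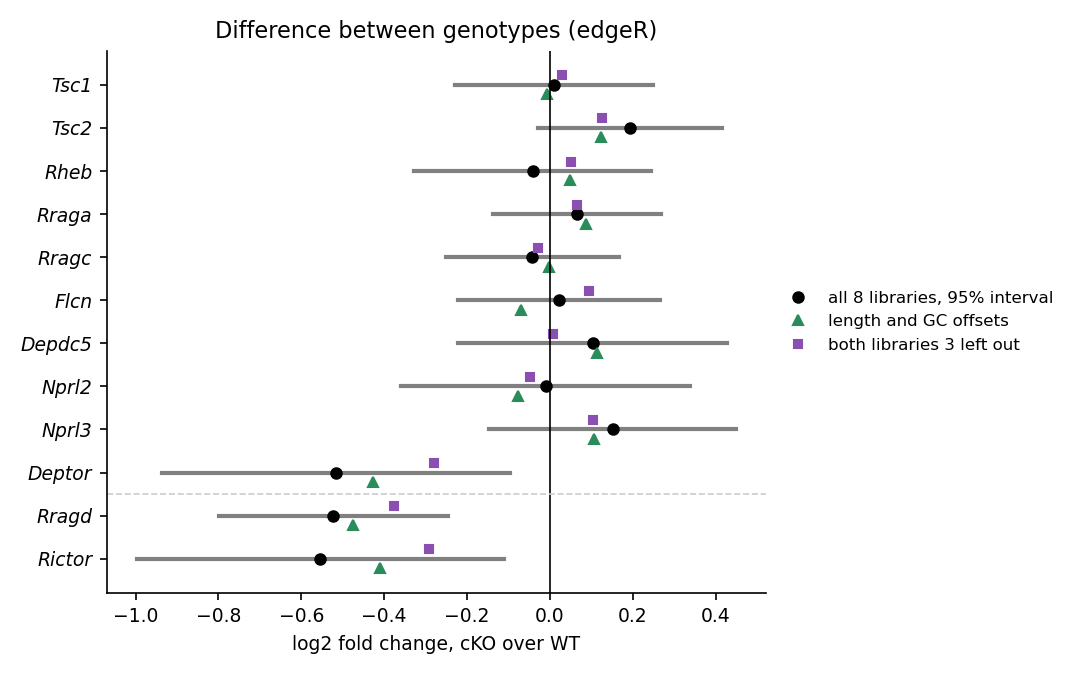
Log2 fold change of cKO over WT for the 10 members and, below the dashed line, Rragd and Rictor: point and 95% interval with all 8 libraries, and the values with length and GC offsets (triangles) and without both libraries 3 (squares). Of the 10 members, only the interval of Deptor lies on 1 side of 0, from -0.94 to -0.097, and its values move to -0.43 and -0.28.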

How the data were processed

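The authors deposited raw counts and FPKM values for the same genes in 4 WT and 4 cKO libraries. Per the series' design text, RNA was sequenced on an Illumina NovaSeq instrument and passed through Hisat2, then Stringtie. Those sources state no versions, build, counter or strand setting. All 10 members have coordinates identical to GENCODE M21 (GRCm38). Counts were tested in 1 fit over 14701 genes with edgeR 4.0.16 (quasi-likelihood F-test, robust, TMM factors, default filter, genotype as the single term; R 4.3.3), adjusted by Benjamini-Hochberg at 0.05. The SE is the size of the log2 fold change over the square root of F. CPM uses TMM-scaled totals. Intervals on single libraries are exact, at 95%, and cover counting error only. GC is that of the longest GENCODE transcript (98.3% of tested genes). The edgeR step was tested on simulated data. DESeq2 1.42.0 and limma 3.58.1 served as alternatives. Depth, at 15110451 to 18708335 counts per library, and the variation between libraries both set the precision. Deptor had 1288 to 2966 counts per library and an SE of 0.19, and Nprl3 had 181 to 245 counts and an SE of 0.14. Every pair of libraries differed by more than sampling noise.

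Members, lists and alternatives were chosen with earlier results of these data known. Named genes are the members, Rictor, the 5 genes nearest to Deptor in profile, and listed pathway genes with an unadjusted p under 0.05 or the smallest p of their list; others are named as chosen after their values were seen, or as partners, overlapping genes or markers given for context.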

Additional observations from a re-analysis of the deposited data

Results flagged for a closer look

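Of 24 groups of 4 libraries (10 members, Rictor and Rragd in each genotype), 3 held a highest or lowest library whose gap to its nearest neighbour, as a share of the whole range, was above Dixon's 95% critical value for 4 samples; chance gives about 1 in 20 groups. For Tsc2 this was WT library 2, with 63.9 CPM, below the 68.6 to 68.8 CPM of the rest, and the gap made up 0.952 of the range. For Flcn it was cKO library 2, with 31.9 CPM above 29.8 to 30.1 CPM, and the share was 0.881. For Nprl2 it was cKO library 3, with 17.5 CPM above 12.4 to 13.2 CPM, and the share was 0.844.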

How the results depend on the processing

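Of 20 alternatives, 0 brought a member past the adjusted threshold, and Deptor, Tsc2, Rraga, Rragc, Depdc5 and Nprl3 kept their sign in all 20. Signs of near-zero members turned. Rheb was at 0.0059 with sample quality weights, 0.049 with length and GC offsets and 0.050 without both libraries 3, Tsc1 at -0.0074 and Flcn at -0.070 with those offsets, and Nprl2 at 0.0050 with upper-quartile factors. Leaving out 1 library gave -0.099 to 0.071 for Rheb, -0.033 to 0.083 for Tsc1, -0.037 to 0.088 for Flcn, -0.14 to 0.080 for Nprl2 and -0.70 to -0.36 for Deptor. Apart from what each alternative leaves out or corrects, the cause was not tested. The labels number the libraries but state no pairing, and correlations of deviations did not settle whether equal numbers belong together. For libraries of the same number they were -0.108, 0.108, 0.152 and 0.138. WT libraries 3 and 4 correlated best with the cKO library of their number, and WT libraries 1 and 2 with cKO libraries 2 and 1. With the replicate block Deptor was at -0.55, and 0 genes were called against 2. The count over all genes was also 10 without a filter, 8 with quality weights, 41 with DESeq2, 4 without both libraries 3, 0 with limma on log2(FPKM + 1) or with a mean FPKM of at least 0.5, and 0 to 3 without 1 library. The order by FPKM in WT was the same by CPM per kb. With 181 to 311 counts per library for Nprl2 and Nprl3, depth limits these most.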
